A study of Mus musculus with 10 samples.

Results

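The 76 genes described here encode proteins of the mouse cytosolic ribosome. They were chosen by symbol alone from 20661 protein-coding autosomal genes of a RefSeq table (GRCm38.p6, whose sequence is that of mm10): Rpl, Rplp or Rps, a number and at most one of the letters a, b, l or x. Of them 44 are large subunit genes, 29 are small subunit genes and 3 (Rplp0, Rplp1 and Rplp2) form the stalk. They lie on 18 chromosomes, with 14 on chromosome 7, 7 each on chromosomes 11 and 17 and 6 on chromosome 9. The rule also takes in copies with restricted expression, such as Rpl3l of striated muscle and Rpl10l and Rpl39l of testis. It leaves out ribosomal genes on X and those with other names, which are described after the members.

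ATAC-seq, which tags accessible DNA with the transposase Tn5, was run on C57BL/6 mouse neural stem cell lines. The lines were derived from E14.5 embryos with floxed Smchd1, a gene for a chromatin protein known for its role on the inactive X. The groups were Smchd1 fl/fl (control) and Smchd1 del/del (deleted) cells, with 3 and 3 libraries from females and 2 and 2 from males. Deletion used the retrovirus MSCV-Cre-puro with puromycin from 24 h and harvest after 7 days. It is not stated in the sources used here if the controls were given an empty vector. In the labels of the male libraries 1 field, the description, names them female, against the title and the sex entry, and the latter pair was followed.

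Each group is 1 peak list, called by the authors on its pooled libraries. No value therefore has a replicate error, no test between groups was possible, and every difference is a difference between 2 lists. The lists rested on 74674218 to 144613215 tags, with the deleted male list the shallowest. They were ranked by the authors' −log10 q, and the 88159 strongest peaks of each were used, so that rank 1 is the strongest peak and ranks come from lists of 1 length. A gene was given an end peak when a peak summit lay within 1 kb of either end of the gene, and its rank is that of its strongest end peak. Each interval is a 95% exact binomial one, for counting error alone. Of 12 neural stem cell markers 11 had an end peak in every list, against 0 of 6 markers of microglia and blood, 6 of 8 of neurons, 2 of 4 each of astrocytes and oligodendrocytes, 1 or 2 of 4 of endothelial cells and 3 or 4 of 5 of fibroblasts. Over all coding autosomal genes 64.6% to 65.3% had one. The neuron markers with an end peak had median ranks of 4890, 7198, 6986 and 7700.5, stronger than the 19019, 15816, 20157 and 14325 of neural stem cell markers. These peaks therefore do not settle the cell type. Smchd1 had a strong end peak in all 4 lists (ranks 597, 754, 1226 and 271). Values for the 4 lists are in this order throughout: control and then deleted females, control and then deleted males. Which part of Smchd1 was removed is not stated in the labels, and its end peak therefore checks nothing about the deletion.

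Ribosomal proteins are made in equal numbers from many unlinked genes and assemble with ribosomal RNA into a small subunit, which reads the mRNA, and a large subunit, which joins amino acids. Their genes are short and highly transcribed in growing cells, and many carry small nucleolar RNAs (snoRNAs) in their introns. Their mRNAs begin with a run of pyrimidines, the 5′ terminal oligopyrimidine tract, through which mTOR signalling controls their translation. Loss of 1 copy of several of them, among them RPS19, RPL5, RPL11 and RPL35A, causes Diamond-Blackfan anaemia in humans.

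Nearly all of the 76 genes had an open end in every list. An end peak was found for 70, 69, 70 and 70 genes. These are 92.1% (83.6 to 97.0), 90.8% (81.9 to 96.2), 92.1% and 92.1% of the members, against 64.8%, 65.3%, 64.6% and 65.3% of all protein-coding autosomal genes. The same 69 genes had one in all 4 lists, and 6 had one in none: Rpl10l, Rpl17, Rpl32l, Rpl39l, Rps2 and Rps27l. Rpl38, whose protein is known from the translation of Hox mRNAs, was without one in deleted females only. Its interval was nonetheless in that list, from 114668374 to 114669263 on chromosome 11 at rank 29659. There the summit lay 558 bp from the RefSeq start, against at most 24 bp in the other lists, and so fell outside the window around the annotated gene end.

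Of the 6 genes without an end peak, 3 had a peak inside the gene. Rps2, a small subunit gene on chromosome 17, had its summit at 24720003 in control females, at -60 bp from a RefSeq start that lies 1942 bp inside the annotated span, with ranks of 14709, 15359, 15721 and 12986. Rps27l, the paralog of Rps27 known as a p53 target, had ranks of 8369, 8898, 10075 and 8344 at a start 1462 bp inside its span. Rpl17 had ranks of 11286, 14387, 14813 and 17417. When summits anywhere in the gene or within 1 kb of it were counted, an alternative added after seeing the data, 73 members had a peak in all 4 lists and 3 in none. Those 3 were the testis copies Rpl10l and Rpl39l, and Rpl32l. Rpl3l, the striated muscle copy, had an end peak at ranks 11712, 19261, 15901 and 11398, but at its far end, within 1 kb of an end of Msrb1. The summit nearest to the Rpl3l start was at -3417 bp in every list, with upstream distances given as negative.

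Promoter sequences and strands came from RefSeq (GRCm38.p6), with an entry for 56 of the 76 members. In every list 51 of these 56 starts (91.1%) had a summit within 1 kb, against 65.1%, 65.7%, 65.1% and 65.6% of 16456 coding autosomal genes. The other end of the gene had one in 7, 6, 7 and 7 members, 10.7% to 12.5%, close to the 10.4% to 10.8% of all genes. Open ends of members were thus mostly starts. The summits sat close to them: the median distance was 43, 41, 43 and 39 bp, against 72 to 74 bp over all genes. In control females 41 of 51 lay within 100 bp (80.4%, against 60.3% of all genes with a summit within 1 kb). Of the 51, 35 lay upstream and 14 downstream, against 6645 and 4032 of 10713 over all genes. Rps25 had its nearest summit at -336 to -622 bp, and Rpl22 fell outside the 1 kb window at 1324 to 1386 bp.

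**Figure D1:**
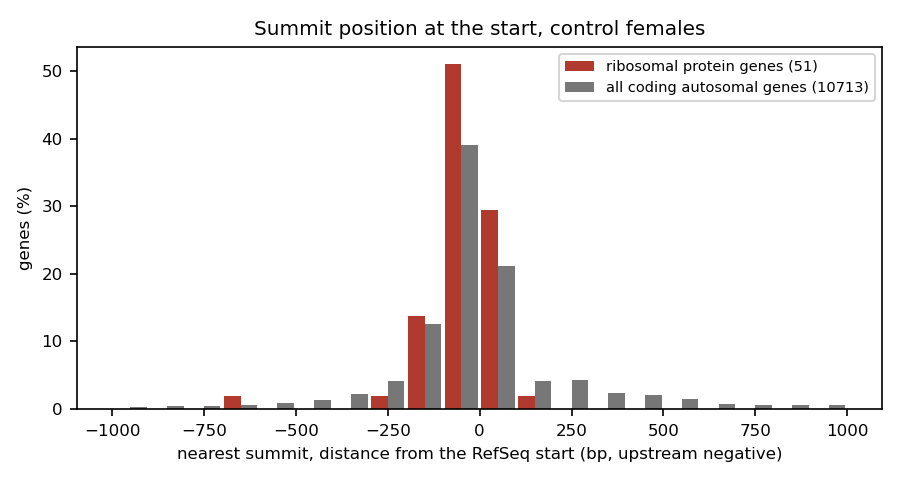
Share of genes (y axis, %) by the distance of the nearest peak summit from the RefSeq start (x axis, bp in steps of 100, upstream negative) in control females, for 51 ribosomal protein genes and all coding autosomal genes with a summit within 1 kb. The ribosomal protein genes cluster at the start, with a median distance of 43 bp against 73 bp over all genes.

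The pyrimidine run that gives these mRNAs their first bases can be read in the promoters of some members, but not at every annotated start. A run that reached within 5 bases of the annotated start had a median length of 6 bases in the 56 members and 3 in 16451 coding promoters. It was at least 8 bases long in 21 members, 37.5% (24.9 to 51.5), against 9.71% of coding promoters. The annotated start base itself was a pyrimidine in 48.2% of members and 23.2% of coding promoters. The 5 members below have runs of 14 to 21 bases and are shown because the tract stands at the start. Each line gives 120 bases before and 20 bases from the start, 5′ to 3′ on the gene's strand, with the run and any motif match in capitals.
Rpl7a (chr2:26910687-26910826, plus strand): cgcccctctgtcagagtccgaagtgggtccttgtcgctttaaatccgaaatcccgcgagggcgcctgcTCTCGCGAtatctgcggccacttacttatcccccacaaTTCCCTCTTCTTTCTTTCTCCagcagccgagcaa
Rpl27a (chr7:109519075-109519214, plus strand): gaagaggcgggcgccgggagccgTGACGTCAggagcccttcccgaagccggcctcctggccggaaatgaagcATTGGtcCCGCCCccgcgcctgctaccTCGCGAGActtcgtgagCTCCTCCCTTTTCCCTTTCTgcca
Rpl35 (chr2:39005112-39005251, minus strand): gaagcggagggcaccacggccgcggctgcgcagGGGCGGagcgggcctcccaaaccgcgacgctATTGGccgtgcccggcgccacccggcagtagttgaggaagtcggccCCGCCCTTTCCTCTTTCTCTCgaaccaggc
Rpl15 (chr14:18270967-18271106, minus strand): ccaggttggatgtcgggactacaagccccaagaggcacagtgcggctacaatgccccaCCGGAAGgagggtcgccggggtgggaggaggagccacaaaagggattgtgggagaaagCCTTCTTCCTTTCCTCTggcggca
Rpl13a (chr7:45128726-45128865, minus strand): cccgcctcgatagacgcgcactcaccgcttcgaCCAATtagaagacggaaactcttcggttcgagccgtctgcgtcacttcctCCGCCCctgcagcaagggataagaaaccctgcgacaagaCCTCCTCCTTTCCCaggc
The run takes in the start base in the first 4, is 21 bases long in Rpl7a, 20 in Rpl27a, 18 in Rpl35 and 17 in Rpl15, and begins 2 bases after it in Rpl13a, with 14. In Rpl35 the run shares bases with a GGGCGG match on the other strand.

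In all, 10 short motifs were searched on both strands of the 300-base promoter windows (250 bases before the start and 50 after), and none of them contains another. CCGGAAG, the core bound by ETS factors such as GABP, was in 22 of 56 members, 39.3% (26.5 to 53.2), against 12.3% of coding promoters. TCTCGCGA, the element bound by BANP and ZBTB33, was in 9 members, 16.1% (7.62 to 28.3), against 1.48%. AAGATGG, a YY1 core, was in 9 members as well (16.1%), against 6.41%. TGACGTCA, the CREB site, was in 8.93% (2.96 to 19.6) against 2.40%. Those 4 shares stood above the coding promoters, and for each the lower bound of the interval did too. In the 100 bases before the start alone, ETS (21.4% against 6.36%), BANP/ZBTB33 and CREB (7.14% against 1.59%) still did, while YY1 was in 1.79% against 1.40%. The intervals of the other 6 included the share of coding promoters: GGGCGG (SP1/KLF) was in 55.4% against 47.3%, CCAAT (NFY) in 28.6% against 39.1% and TATAAA (the core of a TATA box) in 8.93% against 13.5%. GCGCATGC (NRF1) was in 3.57% against 3.65%, CACGTG (E-box) in 8.93% against 7.98% and TGACTCA (AP-1) in 1.79% against 4.60%. Base composition was alike, with a median GC of 56.8% against 56.7%, but members held a median of 21 CpG dinucleotides against 14, and of the 4 motifs with higher shares all but AAGATGG contain CpG. A match is a description of letters and no measure of binding.

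**Figure D2:**
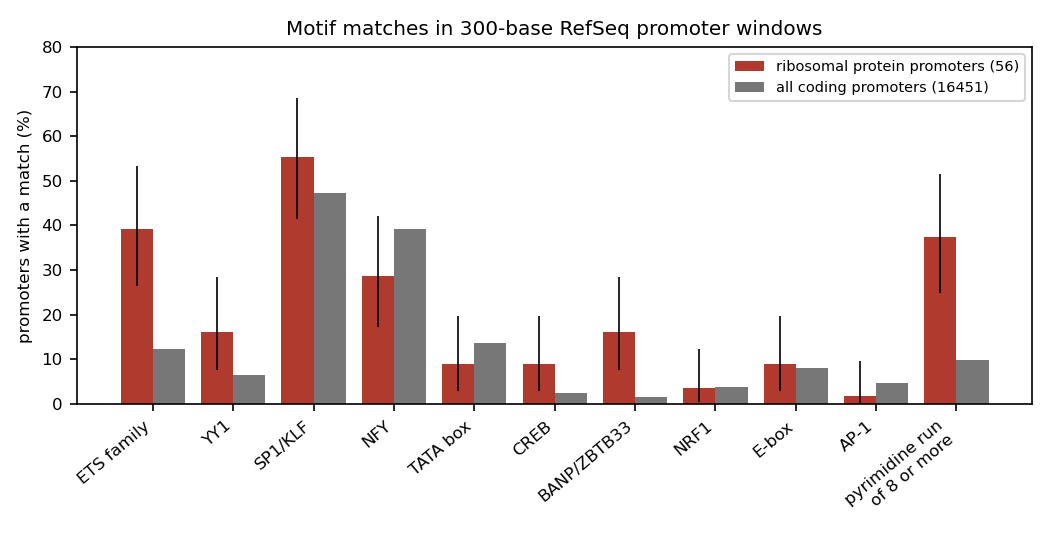
Share of promoters (y axis, %) with a match to each of 10 motifs in a 300-base RefSeq window, and with a pyrimidine run of 8 or more bases at the start (last pair), for 56 ribosomal protein genes (red) and 16451 coding genes (grey). Lines on the red bars are exact 95% binomial intervals; the ETS motif is in 39.3% against 12.3% and the BANP/ZBTB33 motif in 16.1% against 1.48%.

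The TCTCGCGA matches lay near the start. Of the 9 promoters, 7 held it in the 100 bases before the start (12.5% of members, against 0.887% of coding promoters). Rps19 is the gene most often mutated in Diamond-Blackfan anaemia, and Rps6 is the substrate of S6 kinase. Of all 9 promoters, those of Rps19, Rps6 and 2 others are shown for the position of the match, with the capitals as above.
Rps19 (chr7:24884472-24884611, plus strand): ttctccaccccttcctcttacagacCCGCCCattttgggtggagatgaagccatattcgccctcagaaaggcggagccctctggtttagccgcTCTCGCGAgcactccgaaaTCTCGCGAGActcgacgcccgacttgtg
Rps6 (chr4:86857348-86857487, minus strand): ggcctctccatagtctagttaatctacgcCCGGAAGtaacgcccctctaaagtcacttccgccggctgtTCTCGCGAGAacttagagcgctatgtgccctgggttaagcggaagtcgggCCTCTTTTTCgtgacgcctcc
Rps28 (chr17:33824543-33824682, minus strand): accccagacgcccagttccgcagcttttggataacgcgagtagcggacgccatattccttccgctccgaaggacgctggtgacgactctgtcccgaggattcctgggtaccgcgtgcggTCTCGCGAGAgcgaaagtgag
Rpl12 (chr2:32961592-32961731, plus strand): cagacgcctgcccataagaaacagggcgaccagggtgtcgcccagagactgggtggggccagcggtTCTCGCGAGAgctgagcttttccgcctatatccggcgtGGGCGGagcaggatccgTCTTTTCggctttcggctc
Rps19 holds 2 separate matches, and in Rps6 a CCGGAAG match and the pyrimidine run stand on either side of the element. In Rps28 the match begins at the last base before the start and runs past it, so this promoter is not among the 7. The 2 members with the strongest end peaks over the 4 lists, Rpl15 (above) and Rpl37, both hold CCGGAAG, and Rpl37 is shown for comparison with those 4 because it lacks both TCTCGCGA and a long run.
Rpl37 (chr15:5116493-5116632, plus strand): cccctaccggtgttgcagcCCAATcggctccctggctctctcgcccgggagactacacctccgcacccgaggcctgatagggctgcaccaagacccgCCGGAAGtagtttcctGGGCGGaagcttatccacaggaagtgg
The 4 copies without a peak at their start are shown for comparison. In the 300-base windows Rpl3l held none of the 10 motifs and Rpl39l held CCGGAAG. Rpl10l held GGGCGG and Rpl32l held TATAAA, each outside the line shown. Rpl28, Rpl4, Rps12 and Rps15, with an end peak in every list, held none of the 10 either. Whether these motifs bear on the lack of a peak was not tested.
Rpl3l (chr17:24727706-24727845, plus strand): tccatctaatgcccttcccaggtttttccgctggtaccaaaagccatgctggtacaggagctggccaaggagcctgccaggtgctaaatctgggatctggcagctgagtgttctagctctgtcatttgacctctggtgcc
Rpl10l (chr12:66284382-66284521, minus strand): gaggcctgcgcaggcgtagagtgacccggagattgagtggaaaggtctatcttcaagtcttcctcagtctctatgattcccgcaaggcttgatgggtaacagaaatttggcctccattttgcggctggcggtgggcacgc
Rpl32l (chr10:20208319-20208458, plus strand): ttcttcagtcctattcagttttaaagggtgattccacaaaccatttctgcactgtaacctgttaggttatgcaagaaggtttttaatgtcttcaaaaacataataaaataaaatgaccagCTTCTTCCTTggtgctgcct
Rpl39l (chr16:10170108-10170247, plus strand): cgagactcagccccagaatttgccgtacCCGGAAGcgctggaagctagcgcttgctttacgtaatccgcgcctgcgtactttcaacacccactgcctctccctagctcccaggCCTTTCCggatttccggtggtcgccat
Rpl32l holds a run of 10 pyrimidines from its annotated start base but had no peak in any list.

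The strength of the end peaks was ordinary. The median rank of the members was 15036, 12619, 15347.5 and 12566.5, against 12492, 12433, 12806 and 11955 over all coding autosomal genes with an end peak. Members were thus more often open than other genes, but not more strongly so. Of them 14, 16, 11 and 14 were in the strongest 25% of end peaks over all genes, which is 20%, 23.2%, 15.7% and 20%. They were fewer at the weak end, with 5, 5, 6 and 4 in the weakest 25%, or 5.71% to 8.57%. The authors' own fold enrichment over the local background had a median of 5.75, 5.51, 6.59 and 7.07 in members and 6.10, 5.71, 7.18 and 7.16 over all genes. Peaks were slightly shorter than those of all genes in each list, at a median of 869.5, 760, 746.5 and 694.5 bp against 894, 813, 789 and 726 bp.

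The large subunit genes held both ends of the range. Rpl15, on chromosome 14 (18267823 to 18270986), ranked 420, 734, 534 and 310, with a peak from 18270496 to 18271540 in control females and a fold enrichment of 8.83 there. Rpl37, on chromosome 15 (5116613 to 5119140), ranked 943, 459, 764 and 358. No other member was among the 1000 strongest peaks of any list. Next came Rpl31 (2027, 2403, 2265 and 1836), a protein at the exit of the peptide tunnel, Rpl34 (4224, 2548, 2360 and 1409) and Rpl27a (2450, 2764, 2794 and 3940). Another coding gene has an end within 1 kb of Rpl15 (Nkiras1), Rpl37 (Card6) and Rpl31 (Tbc1d8), so their peaks may not be theirs alone. Members without such a neighbour ranked no better than 2450, 1494, 2360 and 1409. At the weak end stood Rpl19 (45112, 38029, 46136 and 33784), whose RefSeq start lies 4707 bp inside the annotated span and so away from its end peak. Rpl23a, also a protein of the tunnel exit, ranked 38899, 29591, 44295 and 24488, and Rpl32 ranked 33953, 31589, 30917 and 32800. Rpl8, which lies near the catalytic centre, ranked 29924, 27877, 34481 and 27609. Rpl12, of the stalk base, ranked 26107, 35244, 26163 and 22097, and Rpl35a ranked 22107, 25787, 29125 and 30254.

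Small subunit genes spanned 2920 to 27820 in control females, against 420 to 45112 for the large subunit. Their median rank was 12744, 11497, 15709 and 13213, against 16191, 12619, 15608 and 12041 for the large subunit, so the order of the subunits turned between the female and the male lists. By mean rank their strongest was Rps29, at 2920, 2624, 5156 and 2161. Rps13 ranked 4555, 3386, 3677 and 1847 and Rps20 ranked 3578, 1494, 5069 and 5299, so Rps29 was not the strongest in 3 of the 4 lists. Rps19 ranked 7856, 4513, 5801 and 4220, and Rps6 ranked 6298, 7673, 9208 and 3949. Rps14, the gene of the human 5q deletion syndrome, ranked 14043, 11497, 17707 and 12080. Rps27a, made as a fusion with ubiquitin, ranked 11918, 9613, 14788 and 14840. In the stalk, which recruits the translational GTPases, the scaffold gene Rplp0 ranked 5167, 3145, 3558 and 3827. Its partners stood lower, Rplp1 at 21285, 13230, 15169 and 16589 and Rplp2 at 15190, 13546, 15359 and 11026. The longest end peak of control females was that of Rpl7 (1731 bp), followed by Rpl34 (1313 bp) and Rps19 (1229 bp).

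**Figure D3:**
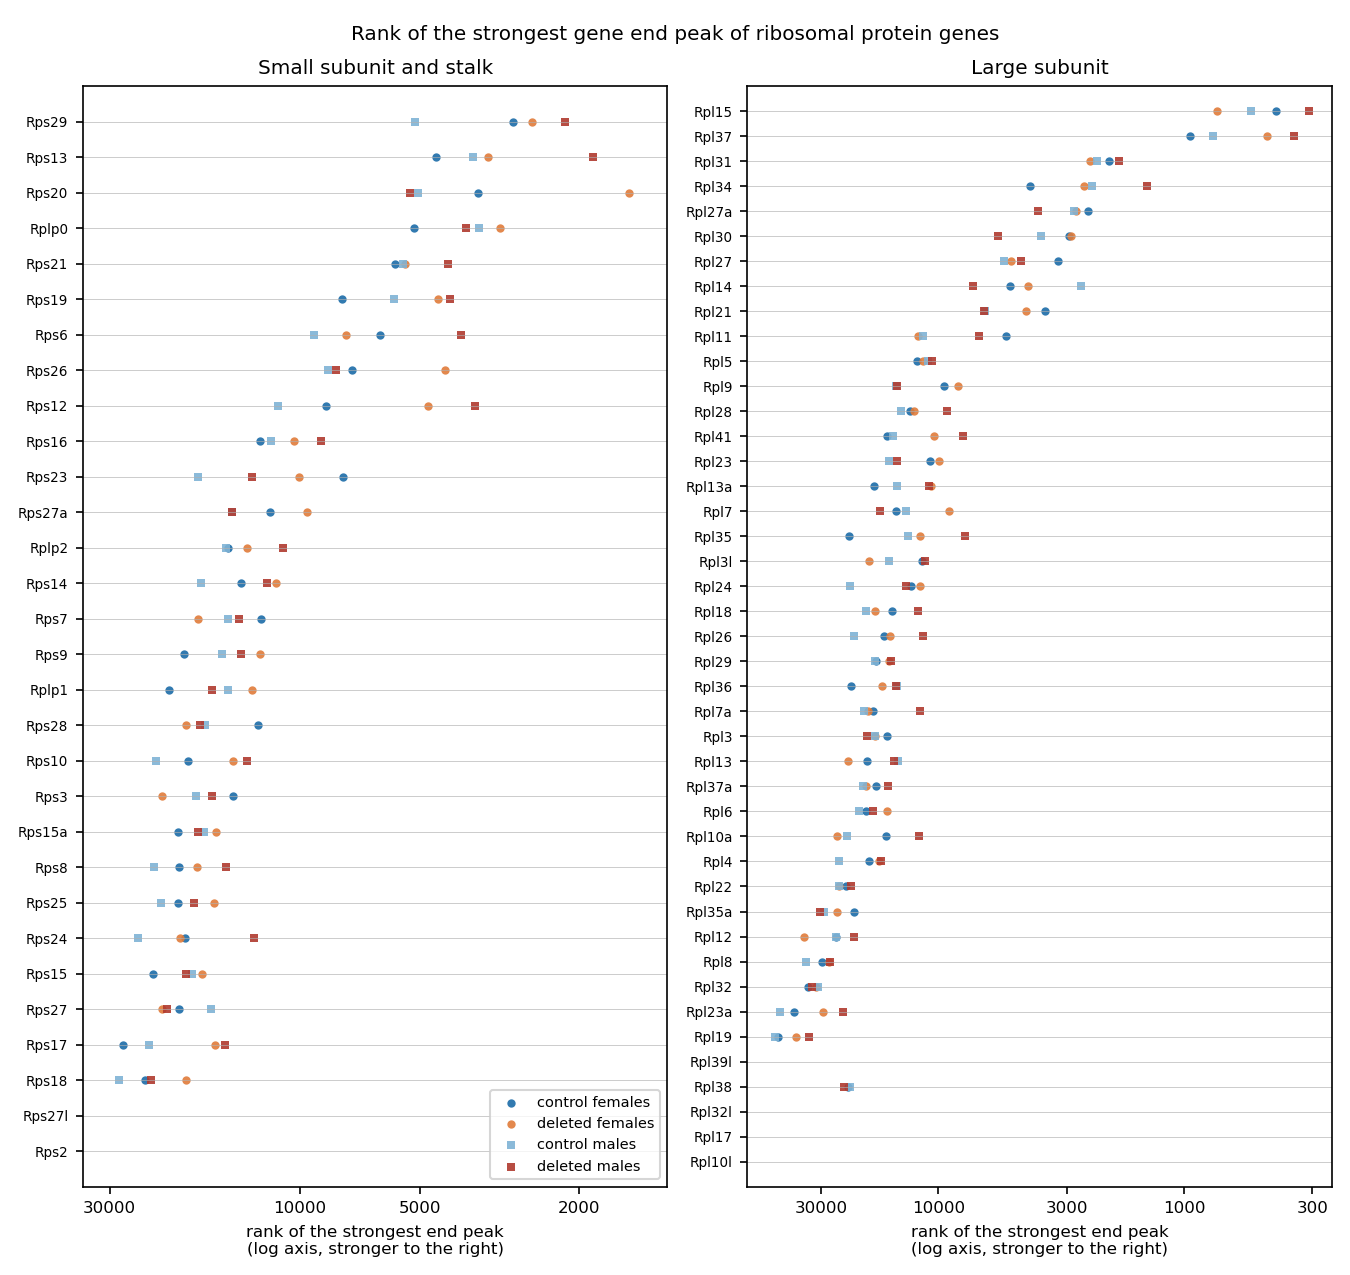
Rank of the strongest end peak (x axis, log scale, stronger to the right) of 73 of the 76 members in the 4 lists, with small subunit and stalk genes on the left and large subunit genes on the right, ordered by mean rank. Rpl15 and Rpl37 stand apart at the top right (ranks 310 to 943), Rpl19 lies lowest, and rows without points are genes with no end peak.

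Neighbours and gene structure limit what an end peak belongs to. An end of another coding gene lay within 1 kb of 27 members (35.5%), against 25.6% of all coding autosomal genes, and a peak between both cannot be assigned to either. Rpl41, which encodes the shortest ribosomal protein, had its strongest end peak not at its start but at its far end beside Zc3h10. The same held for Rpl3l, for Rpl4 (19119, 17447, 25451 and 17120), beside Snapc5 and Zwilch, and for Rpl22 (23819, 25344, 25488 and 22738). Members were short, with a median length of 3179 bp against 17491 bp. A snoRNA lay inside 26 of them (34.2%), against 355 coding autosomal genes (1.72%), 53 snoRNAs in all and at most 5, in Rpl4.

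The next comparison asked whether these genes differed between deleted and control cells. No end peak of a member was lost or gained. A lost peak ranked 44079 or better in control cells with no overlapping peak among the 88159 of the deleted list, and a gained peak was the reverse. In females 0 of 76 member peaks were lost and 0 of 76 gained, which allows shares of up to 3.95% and 3.95% (3 counts of the total). In males 0 of 71 were lost and 0 of 77 gained, which allows up to 4.23% and 3.90%. Among end peaks of all coding autosomal genes 0.0269% were lost and 0.0987% gained in females, and 0.134% and 0.166% in males, so 0 is near the background. Without the margin between the strong and the full list, 4 of 84 member peaks were lost in females, 4.76% against 5.77% of all, and 0 of 83 gained, against 5.37%. In males 2 of 82 were then lost, 2.44% against 6.53%, and 4 of 87 gained, 4.60% against 7.14%.

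Within the list, member peaks stood slightly higher in deleted cells of both sexes. The log2 rank ratio, deleted over control, is below 0 where the peak stood higher in the deleted list. Its median over members was -0.15 in females (69 genes) and -0.33 in males (70 genes), against -0.03 and -0.10 over all coding autosomal genes. It was below 0 in 46 of 69 members (66.7%) and 51 of 70 (72.9%), against 52.1% and 58.3% of all. The median size of the ratio, whatever its sign, was 0.30 and 0.40 in members and 0.31 and 0.33 over all genes. The female value depended on the ranking. It was -0.39 by fold enrichment, where the median of all genes also moved to -0.18, and -0.062 by pileup, where that of all genes was 0.03. It was -0.086 over RefSeq starts alone (51 genes), where that of all genes was -0.03. Without members near another coding gene end, an alternative added after seeing the data, it was -0.25. The male value was -0.22 by fold enrichment, where that of all genes was -0.11. The lists also differed in depth, and its part in these shifts was not tested.

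Few members moved 2-fold, about as many as among all genes. In females 2 of 69 moved up at least 2-fold, Rpl37 and Rps20 (2.90%, against 3.64% of all coding autosomal genes), and 1 moved down, Rpl11 (1.45% against 2.94%). In males 4 of 70 moved up, Rpl37, Rps12, Rps29 and Rps6 (5.71% against 5.24%), and 1 moved down, Rpl14 (1.43% against 2.74%). At 1.5-fold the balance was uneven. In females 16 moved up (23.2% against 13.0%) and 7 down (10.1% against 9.91%), and in males 23 moved up (32.9% against 16.5%) and 1 down (1.43% against 8.73%).

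Rpl37 alone moved up 2-fold in both sexes, 1 of 69 members (1.45%) against 0.736% of all coding autosomal genes. Its rank went from 943 to 459 in females and from 764 to 358 in males, log2 ratios of -1.04 and -1.09. The move lay within the strongest 1000 peaks of every list, and its fold enrichment was 8.07, 8.68, 9.70 and 10.8. An end of Card6 lies within 1 kb of an end of Rpl37, so this peak may not belong to Rpl37 alone. Rps12, a small subunit gene with 3 snoRNAs, went from 8627 to 4776 in females and from 11333 to 3640 in males, ratios of -0.85 and -1.64. Its summit stayed within 5 bp across the 4 lists, from 23787337 to 23787342 on chromosome 10. Rpl35, with its tract of 18 pyrimidines, went from 23181 to 11917 and from 13280 to 7820, ratios of -0.96 and -0.76. It has an end of Wdr38 within 1 kb. Rpl41 went from 16247 to 10436 and from 15336 to 7962, at the peak it shares with Zc3h10. These 4 are among the 5 members with the lowest mean ratio of those with 1 sign in both sexes.

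At the other end, Rpl27a had the largest mean ratio of 1 sign, from 2450 to 2764 in females and from 2794 to 3940 in males, ratios of 0.17 and 0.50. Rps28 (0.60 and 0.04), Rps27 (0.14 and 0.37), Rpl13 (0.26 and 0.06) and Rpl3 (0.17 and 0.11) followed, all under 2-fold. No member moved down 2-fold in both sexes, where 0.493% of all coding autosomal genes did.

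Several members moved in opposite directions. Rpl11, which with Rpl5 and the 5S RNA binds Mdm2, went from 5285 to 12094 in females and from 11581 to 6858 in males, ratios of 1.19 and -0.76. Its control female and deleted male ranks were thus the strong ones. Rpl5 hardly moved, at 12278, 11535, 10994 and 10611. Rps20, named here with Rpl14 because they passed 2-fold, went from 3578 to 1494 in females but stood at 5069 and 5299 in males. Rpl14 stood at 5099 and 4300 in females and went from 2636 to 7220 in males, a ratio of 1.45. Rps6 went from 6298 to 7673 in females and from 9208 to 3949 in males. Rpl15 went from 420 to 734 and from 534 to 310.

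**Figure D4:**
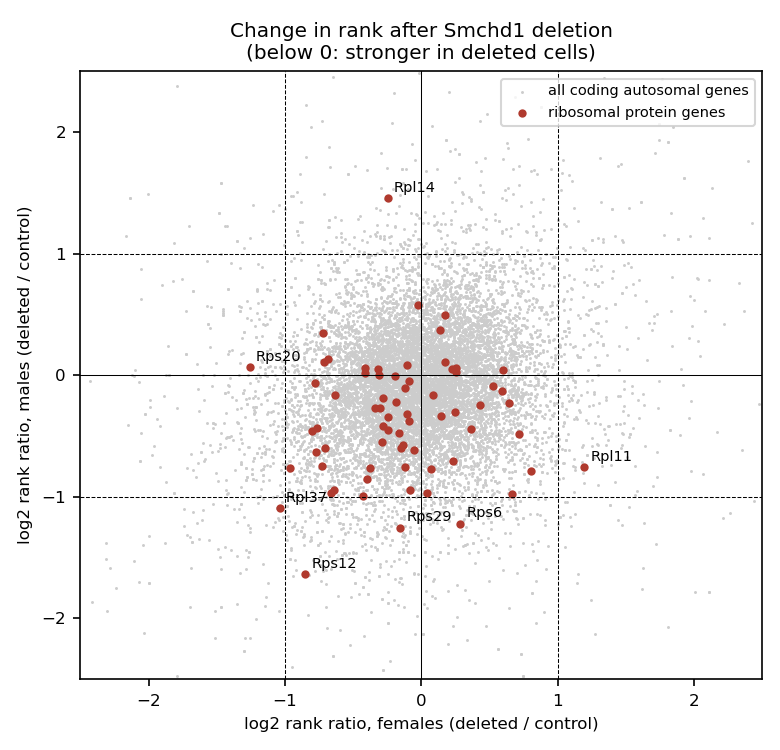
Log2 rank ratio, deleted over control, of each gene's strongest end peak in females (x axis) and males (y axis), for 69 ribosomal protein genes (red) and other coding autosomal genes (grey), with dashed lines at 2-fold. The lower left quadrant, higher in deleted cells of both sexes, holds 35 members, and Rpl37 is the 1 member below both dashed lines; 50 grey points lie outside the axes.

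Gene by gene, 35 of 69 members were higher in deleted cells of both sexes (50.7%), against 32.8% of all coding autosomal genes, and 7 were lower in both (10.1% against 22.3%). Another 11 of the 69 were higher in females alone and 16 in males alone, against 2460 and 3257 of 12768 genes. Spearman's rho between the female and the male ratios was 0.08 across the 69 members and 0.16 across 12768 genes, with no p, since genes are not replicates. So the order of the members in one sex said little about their order in the other.

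Lists of 1 genotype differed from each other too. From control females to control males the median log2 rank ratio of members was 0.17, against 0.02 over all genes. The ratio was above 0 in 45 of 70 members and below 0 in 35.7%, against 47.9% of all genes. Between the deleted lists the median was -0.12 against -0.05, with 62.3% of members below 0 against 54.3% of all. In the first of these 0 of 70 members moved up 2-fold (0.00% against 2.63%) and 2 moved down, Rpl11 and Rps23 (2.86% against 3.61%). In the second 2 of 69 moved up, Rpl10a and Rpl15 (2.90% against 3.7%), and 1 down, Rps20 (1.45% against 3.11%). In size the difference between the 2 control lists was close to the female shift with deletion, and the male shift was larger than both within a genotype. Between any 2 lists the ranks of members had a Spearman's rho of 0.85 to 0.89, and those of all coding autosomal genes 0.95 to 0.96.

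The shift was uneven over the subunits. It was -0.31 in females and -0.42 in males over 27 small subunit genes, and -0.09 and -0.31 over 39 and 40 large subunit genes. All 3 stalk genes were higher in deleted females, with ratios of -0.72 (Rplp0), -0.69 (Rplp1) and -0.17 (Rplp2), but in males the ratios were 0.11, 0.13 and -0.48. The 14 members on chromosome 7 had medians of -0.37 and -0.47, where all coding genes of that chromosome had -0.07 and -0.16, and the members on other chromosomes had -0.12 and -0.27. Some of these 14 lie close together and so are not independent. Rpl13a, known also from the silencing of inflammatory mRNAs, went from 18294 to 10763 in females and from 14792 to 10926 in males.

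Related genes gave the setting. The 12 cytosolic ribosomal genes that the symbol rule leaves out (among them Rpl10, Rps4x, Rpl36a, Rpl39, Rpsa, Fau and Rack1) all had an end peak in every list, with median ratios of -0.11 and 0.08. The first 4 are on X, and their medians were 0.06 and -0.28. Rpsa, the laminin receptor precursor, ranked 7972, 5473, 4235 and 8187. Other genes whose mRNAs carry the pyrimidine tract, such as elongation factors, all had an end peak (18 of 18), and theirs were stronger, with a median rank of 6391.5, 6502, 7831 and 5022 and ratios of -0.19 and -0.34. Among them Tpt1 ranked 919, 570, 745 and 176, and Eef1a1 ranked 6947, 5877, 9542 and 4267. Genes of the mitochondrial ribosome had an end peak in 73, 73, 73 and 74 of 77 cases, with ratios of 0.04 and -0.10, as over all genes. Ribosome biogenesis genes had one in 31 of 32 cases in every list, with ratios of 0.01 and -0.30. None of these lists was tested against the members.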

How the data were processed

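Accessibility of 10 neural stem cell libraries in 4 groups was read from 1 deposited peak list per group. Per the submitters' processing notes, mm10 was the build and the tools named include Bowtie2 2.2.5 and Trim Galore 0.4.0. The peak caller was MACS 2.1.0.20140616, per the file headers, run on 1 alignment per group without a control, with 1 tag kept per position, tags shifted by 75 bp and extended to 150 bp, and q-values of at most 0.05. Tag sizes were 53, 63, 62 and 59 bp. Pileup is a signal height deposited by the authors, and fold enrichment is the authors' own ratio over the local background. The −log10 p and −log10 q values are deposited by the authors too.

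Peaks on standard chromosomes were ranked by −log10 q, with ties ordered by p-value, fold enrichment, pileup and position, and cut to the 88159 strongest. The lists held 130103, 104316, 101322 and 88159 such peaks, and the last kept peak had a −log10 q of 6.59, 4.27, 4.52 and 1.39. Overlap meant at least 1 shared base pair. No p-value was computed. Of 19 genes listed for the pyrimidine tract, Gnb2l1 was not found in the table; Rps4l was also not found.

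Genes were named by a rule: members without an end peak in some list, the 6 best and 6 worst by mean rank, the 5 largest and 5 smallest mean ratios of 1 sign, the 3 longest peaks and a set of names. Members past 2-fold were named after their values were seen. Some genes that the rule takes are not reported here. The members and lists were chosen with earlier results of these data known. The scripts, in Python 3.11.15 with scipy 1.17.1, numpy 2.4.6, matplotlib 3.10.9 and pandas 2.3.3, were tested on simulated data.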

Additional observations from a re-analysis of the deposited data

How the results depend on the processing

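No paired analysis was possible because each group has 1 pooled list, and for the same reason no replicate could be left out. Of 98 alternative values 66 stayed close to the reported one and 32 moved. A reversal of direction was looked for only in the median rank ratios, which kept their sign in every alternative. After seeing the data 3 alternatives were added (summits anywhere in the gene, no members on chromosome 7, no members near another coding gene end). The female median rank ratio of -0.15 became -0.39 by fold enrichment, -0.062 by pileup, -0.086 over starts alone and -0.25 without members near another coding gene end. The number of members higher by 2-fold in deleted females, 2, became 5 by fold enrichment, 1 by pileup, 1 over starts alone, 1 without such neighbours and 16 at 1.5-fold, and the number lower, 1, became 0 by pileup and 7 at 1.5-fold. In males the median of -0.33 became -0.22 by fold enrichment, the number higher went from 4 to 23 at 1.5-fold, and the number lower from 1 to 0 by fold enrichment. Lost member peaks in females went from 0 to 4 with no margin, 5 in the uncut lists, 4 where −log10 q had to reach 10, and 1 by pileup. In males they went from 0 to 2, 3 and 4 under the first 3 of these, and gained ones from 0 to 4 with no margin, 4 in the uncut lists and 1 by pileup. The share of member peaks was below that of all genes in each of these but the 2 by pileup, 1.27% against 1.25% lost in females and 1.27% against 0.58% gained in males. In the 100 bases before the start alone, shares of members against coding promoters were 21.4% against 6.36% for the ETS motif, 1.79% against 1.40% for YY1, 30.4% against 34.4% for SP1/KLF, 16.1% against 21.6% for NFY, 1.79% against 3.53% for E-box and 0% for TATA, NRF1 and AP-1, against 6.33%, 1.99% and 1.54%. SP1/KLF and E-box thus went from above to below coding promoters. The cause of these moves was not tested, other than the shorter window itself for the motifs and the lower threshold at 1.5-fold. Weak peaks are least reliable in the deleted male list, the shallowest.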

Other observations

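Of the 18 members listed as Diamond-Blackfan anaemia genes, all had an end peak in every list. Their median rank went from 12644.5 in control to 13402 in deleted females, and from 14225.5 to 11078 in males. The median log2 rank ratio, deleted over control, was 0.09 in females and -0.55 in males. Over all members the medians were -0.15 and -0.33. In females 8 of the 18 genes were below 0 (44.4%, against 52.1% of all coding autosomal genes), and in males 15 were (83.3% against 58.3%). Lists of 1 genotype differed as well. From control females to control males the median of the 18 was 0.31, with 27.8% below 0 against 47.9% of all genes. Between the deleted lists it was -0.21, with 88.9% below 0 against 54.3%. The difference between the sexes was not tested.

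The 26 members that host a snoRNA had an end peak in 24 cases in every list, with median ranks of 14956.5, 11149, 14901 and 10976, and median ratios of -0.14 and -0.29. The members without a snoRNA had ratios of -0.18 and -0.33. Among members with a promoter sequence and an end peak in all 4 lists, the 18 with a CCGGAAG match had a median mean rank of 13138, against 15404 for the 32 without. The 9 with TCTCGCGA had 16534 against 13780 for the 41 without. These are descriptions of 4 lists, and no test was made.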
